A study of Homo sapiens with 6 samples.

Results

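A set of 10 genes that cells switch on when oxygen is short was followed in K562 cells with wild-type SF3B1 and in K562 cells with SF3B1-K700E: NDRG1, ADM, CA9, BNIP3, BNIP3L, EGLN1, EGLN3, P4HA1, P4HA2 and ANKRD37. The list was set by gene name, with earlier results of these data known. All 10 had a row in both deposited tables of 62111 genes. All 10 were also among the 15493 genes that were tested, whose mean reached 1 TPM (reads per gene length, scaled to the same total in every library). K562 is a human line from chronic myeloid leukaemia in blast crisis with erythroid features. SF3B1 is a spliceosome subunit that takes part in branch point choice, and K700E is a substitution in it that recurs in blood cancers. One group was labelled SF3B1-wt (WT below) and the other SF3B1-K700E, with 3 mRNA libraries each. No oxygen level or treatment is part of the labels, and how the K700E cells were made, whether they are 1 clone and whether replicates are separate cultures was not given in the sources used here. The p-values therefore measure the spread between these libraries, which may be technical.

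Hypoxia-inducible factors (HIF) are pairs of an oxygen-sensitive alpha subunit, encoded by HIF1A or EPAS1, and ARNT. With oxygen present, prolyl hydroxylases of the EGLN family mark the alpha subunit, VHL recognises the mark and the subunit is degraded. When oxygen is low the subunit persists, enters the nucleus and binds short sites with the core ACGTG or GCGTG near its target genes. The 10 genes are known targets with different jobs. EGLN1 and EGLN3 feed back on the oxygen sensor itself, BNIP3 and BNIP3L mark mitochondria for removal, P4HA1 and P4HA2 are catalytic subunits of collagen prolyl hydroxylase, and CA9 is a carbonic anhydrase on the cell surface that helps to control pH. ADM encodes the vasodilator peptide adrenomedullin, NDRG1 a cytoplasmic stress protein that is also induced by iron depletion, and ANKRD37 a small protein with ankyrin repeats.

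The 250 bases before the start of 5 members are printed to show where the HIF core lies in genes that behaved differently below. ADM and EGLN3 had all K700E libraries above all WT libraries. CA9, BNIP3 and P4HA1 were the 3 members with the widest range over WT libraries. Sequences are from RefSeq on GRCh38.p14, read 5′ to 3′ on the strand of the gene, and capitals mark ACGTG or GCGTG on either strand. They span chr11:10304823-10305072 (plus strand) for ADM, chr14:33951075-33951324 (minus) for EGLN3, chr9:35673678-35673927 (plus) for CA9, chr10:131981924-131982173 (minus) for BNIP3 and chr10:73096867-73097116 (minus) for P4HA1.
ADM: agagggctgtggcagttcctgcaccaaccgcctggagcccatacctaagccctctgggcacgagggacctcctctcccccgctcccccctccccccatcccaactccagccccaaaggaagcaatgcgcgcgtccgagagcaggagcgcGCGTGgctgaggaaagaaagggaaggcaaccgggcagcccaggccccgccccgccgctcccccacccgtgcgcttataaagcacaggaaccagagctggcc
EGLN3: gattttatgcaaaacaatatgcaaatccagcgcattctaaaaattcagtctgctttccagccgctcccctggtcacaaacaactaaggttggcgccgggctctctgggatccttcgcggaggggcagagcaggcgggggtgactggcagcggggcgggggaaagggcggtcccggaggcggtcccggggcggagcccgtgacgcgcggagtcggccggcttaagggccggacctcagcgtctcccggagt
CA9: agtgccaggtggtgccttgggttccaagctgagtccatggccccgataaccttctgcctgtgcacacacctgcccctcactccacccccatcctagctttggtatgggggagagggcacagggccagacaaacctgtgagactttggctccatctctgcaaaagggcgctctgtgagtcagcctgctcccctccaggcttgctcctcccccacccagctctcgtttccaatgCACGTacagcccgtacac
BNIP3: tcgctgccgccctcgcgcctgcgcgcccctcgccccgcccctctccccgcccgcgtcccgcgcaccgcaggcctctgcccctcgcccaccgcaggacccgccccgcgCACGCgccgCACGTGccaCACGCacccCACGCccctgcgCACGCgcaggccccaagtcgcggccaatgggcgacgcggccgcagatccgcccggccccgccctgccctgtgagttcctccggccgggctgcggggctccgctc
P4HA1: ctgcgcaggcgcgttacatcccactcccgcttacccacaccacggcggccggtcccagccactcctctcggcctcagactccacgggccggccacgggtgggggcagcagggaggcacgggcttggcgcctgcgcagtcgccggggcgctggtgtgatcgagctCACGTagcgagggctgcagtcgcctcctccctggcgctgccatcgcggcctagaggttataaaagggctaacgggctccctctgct
BNIP3 held 2 copies of ACGTG, which overlap on opposite strands, and 4 of GCGTG between 143 and 100 bases before its start. CA9 held 1 ACGTG at 18 to 14 bases and P4HA1 1 at 86 to 82 bases before the start. ADM held 1 GCGTG at 101 to 97 bases before the start, and EGLN3 held neither motif in this window. Of the other members, ANKRD37 held 3 copies of ACGTG, EGLN1 held 1 and P4HA2 none, while NDRG1 and BNIP3L were not matched. Of all 35116 RefSeq promoters cut the same way, 18.5% held ACGTG, 32.2% held GCGTG and 43.2% held either, so a match is common, and it describes the letters only.

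Both genotypes carried the erythroid markers of K562. All 10 erythroid markers looked at, GATA1, TAL1, KLF1 and HBZ among them, were above the level tested. Of these markers 0 passed by limma. An unadjusted limma p under 0.05 was reached by 2 of the 10, against 16.5% of all tested genes. Not all markers were level between libraries. ALAS2 was at 717 to 773 TPM in WT against 971 to 1363 TPM in K700E libraries (limma adjusted p 0.0923). HBZ was at 182 to 301 TPM against 346 to 749 TPM (limma adjusted p 0.173). Both had all K700E libraries above all WT libraries, as 19.0% of all tested genes had. HBE1 was at 3710 TPM in K700E replicate 1 and at 634 and 603 TPM in the other K700E libraries, and that library was also the highest for NDRG1 and EGLN3 below. The part of erythroid state in the differences below was not tested. Of 8 markers of lymphoid, monocytic, stromal and endothelial cells 7 had a row, and these summed to 5.30 to 6.81 TPM in WT and 7.35 to 8.71 TPM in K700E libraries. MS4A1 and CDH5 were at 0 in all WT libraries, and COL1A1 was at 1.31 to 2.44 TPM over WT libraries and 3.29 to 5.07 TPM over K700E libraries. Their part in these differences was not tested either. The recovered depth was 104642332 to 136588117 read ends per library. SF3B1 itself ranged from 98.9 to 144 TPM over the WT libraries and from 118 to 160 TPM over the K700E libraries, and values per gene cannot show the substitution. WT replicate 3 lay between WT replicates 1 and 2 in 75.9% of tested genes, whereas no K700E library lay between the other K700E libraries in more than 46.3%. Whether it is independent of them was not tested. The results that passed the test, and EGLN3, are therefore given with and without it.

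Of the 10 hypoxia-inducible genes, NDRG1 and ADM rose in K700E, and the other 8 did not pass the test at a limma adjusted p under 0.05. Over all tested genes 1.38% passed, 1.15% in the higher direction (178 genes) and 0.232% in the lower (36 genes). Of the members 2 passed as higher and 0 as lower. The members were chosen with earlier results of these data known, so these counts are a description. With a correction for GC content the split over all genes was 267 higher and 218 lower. NDRG1, ADM and EGLN3 had all K700E libraries above all WT libraries, a pattern shared by 19.0% of all tested genes, and 0 members had all of them below, against 4.99% of all genes. These 3 were also the members with an unadjusted limma p under 0.05, as 16.5% of all genes had in either direction. The median log2 difference was 0.07 over the members and 0.13 over all tested genes, so as a group the members did not lie above the rest. TMM scaling, which sets the bulk of genes level, moved the median gene to 0.0018, and relative to the median gene the differences of NDRG1, ADM and EGLN3 were 1.79, 1.57 and 0.78. Without WT replicate 3 limma called 0 of the 10, and 0 of all 15493 genes (1462 at an unadjusted p under 0.05), while 3 members had an unadjusted p under 0.05. By mean level over all 6 libraries the order was P4HA1 (236 TPM), BNIP3L (145), BNIP3 (58.2), P4HA2 (55.8), NDRG1 (44.9), EGLN3 (37.3), CA9 (8.55), ANKRD37 (7.79), ADM (3.30) and EGLN1 (1.90). Library values of neighbours in this order overlapped, except between BNIP3L and BNIP3 and between EGLN3 and CA9. The order differed by genotype: NDRG1 averaged below EGLN3 in WT (16.9 and 25.3 TPM) but above P4HA2 and BNIP3 in K700E (72.8 beside 60.4 and 54.7 TPM), and ADM averaged below EGLN1 in WT (1.02 and 1.82 TPM) but above it in K700E (5.58 and 1.99 TPM). In bulk RNA, fewer cells that express a gene and less RNA per cell cannot be told apart.

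**Figure D1:**
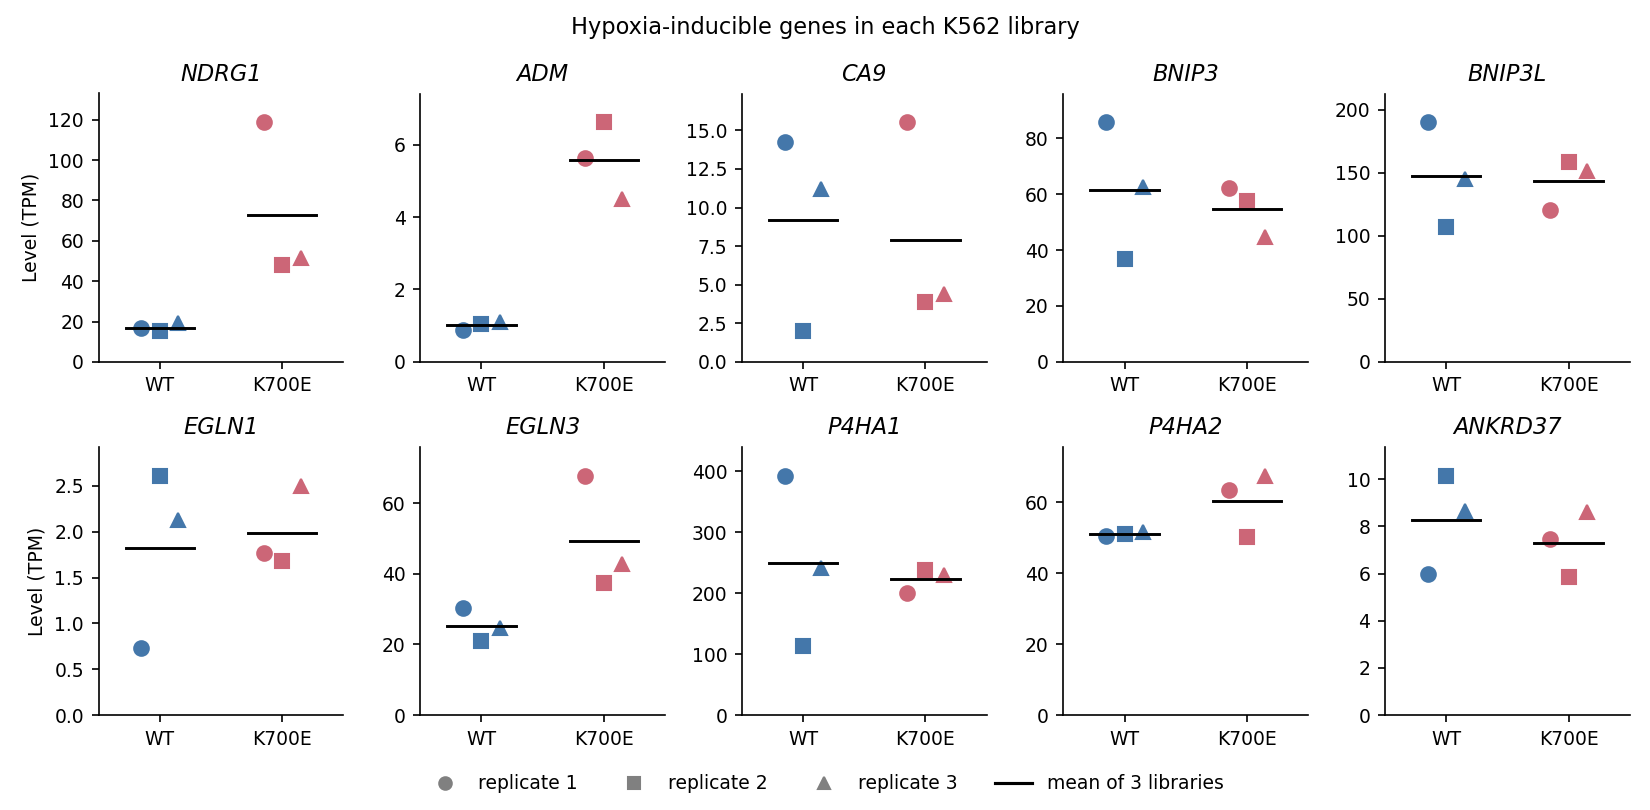
Level of each hypoxia-inducible gene in TPM (linear axes from 0) in the 3 WT libraries (blue) and the 3 K700E libraries (red), with replicate shown by symbol and the mean as a line. NDRG1, ADM and EGLN3 have no overlap between genotypes, while P4HA1 runs from 113 to 393 TPM within WT alone.

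ADM was low but stood apart most cleanly. The gene (ENSG00000148926, GRCh37 chromosome 11, 10326620 to 10328944, plus strand) was at 0.891, 1.06 and 1.11 TPM in WT replicates 1, 2 and 3 against 5.64, 6.62 and 4.49 TPM in the K700E replicates. Every K700E library was more than 4 TPM and every WT library near 1 TPM, so the groups did not overlap. The means were 1.02 ± 0.113 and 5.58 ± 1.07 TPM (SD, n = 3 each), a 5.48-fold ratio, and the log2 difference was 1.69 (SE 0.17, 95% interval 1.29 to 2.1, limma adjusted p 0.0133). These levels rest on 90 to 149 read ends in WT and 550 to 785 in K700E, so counting alone gives an error of 8.19 to 10.5% in WT libraries, which covers counting error only. The adjusted p of ADM stayed under 0.05 when any library other than WT replicate 3 was left out (0.0255 to 0.0396). Without WT replicate 3 it was 0.0983, at a log2 difference of 1.73. It passed in 14 of 18 alternative settings, with a log2 difference from 0.81 at a pseudocount of 5 to 2.45 with limma-voom on read ends without WT replicate 3, and limma adjusted p from 0.0096 to 0.112.

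NDRG1 rose in K700E as well, with 1 K700E library far above the others. It lies on chromosome 8 (ENSG00000104419) and was at 16.6, 15.2 and 19.0 TPM in WT replicates 1, 2 and 3 against 119, 48.1 and 51.5 TPM in the K700E replicates. K700E replicate 1 was 2.38 times the mean of the other K700E libraries, and even the lowest K700E library was above all WT libraries. The means were 16.9 ± 1.95 and 72.8 ± 39.8 TPM (SD, n = 3 each), a 4.30-fold ratio, with a log2 difference of 1.92 (SE 0.33, 95% interval 1.14 to 2.69, limma adjusted p 0.0435). Leaving out K700E replicate 1 lowered the difference to 1.51 but also the adjusted p, to 0.0313. Leaving out any other library ended the call, with adjusted p of 0.0676, 0.0899 and 0.148 without WT replicates 1, 2 and 3 and of 0.0640 and 0.0698 without K700E replicates 2 and 3. Its limma adjusted p was also over 0.05 with TMM scaling (0.0548) and with the replicate number as a block (0.0655). It passed in 5 of 19 alternative settings, over which the log2 difference ran from 1.51 to 2.15 and the limma adjusted p from 0.0313 to 0.175.

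The oxygen-sensing hydroxylases EGLN3 and EGLN1 differed from each other in level and in pattern. EGLN3 (ENSG00000129521, GRCh37 chromosome 14, 34393433 to 34420287, minus strand) was at 30.3, 21.0 and 24.6 TPM in WT replicates 1, 2 and 3 against 67.8, 37.4 and 42.7 TPM in the K700E replicates. K700E replicate 1 was again the highest, and the groups did not overlap. The means of 25.3 ± 4.68 and 49.3 ± 16.2 TPM (SD, n = 3 each) gave a log2 difference of 0.90 (SE 0.25, 95% interval 0.33 to 1.48), which did not pass over all genes (limma adjusted p 0.135). None of 19 alternative settings brought its limma adjusted p under 0.05, the range being 0.0812 to 0.421, with the highest value without WT replicate 3.

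EGLN1 (GRCh37 chromosome 1, 231499502 to 231558033, minus strand) was at 0.733, 2.61 and 2.13 TPM in WT replicates 1, 2 and 3 against 1.77, 1.68 and 2.50 TPM in the K700E replicates, with WT replicate 1 below all the others. Its log2 difference of 0.14 (95% interval -0.53 to 0.81, limma adjusted p 0.852) was smaller than its range of 1.06 within WT, and its sign turned with GC correction and without WT replicate 1. Of its counted length 69.3% is shared with another gene model on the same strand (ENSG00000287856, averaging 0 TPM over WT and 0.0207 TPM over K700E libraries), and how the counting treated shared bases was not given in the sources used here. The low values of EGLN1 are therefore uncertain as levels. EGLN2, the third hydroxylase, was at 0.675 to 0.814 TPM over WT libraries and 0.504 to 0.733 TPM over K700E libraries, below the level tested, and shares 66.6% of its counted length with the read-through gene RAB4B-EGLN2, which was listed at 0.

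**Figure D2:**
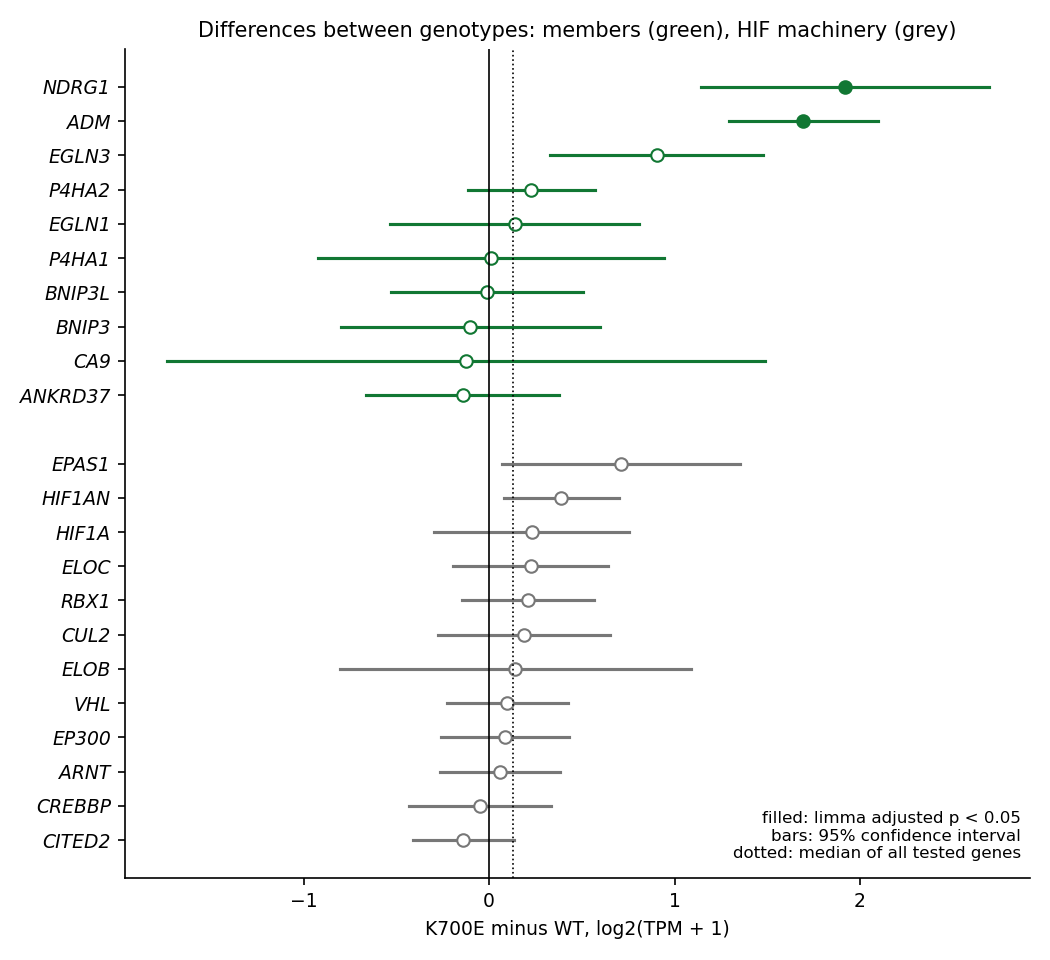
Log2 difference between K700E and WT on the log2(TPM + 1) scale, with 95% confidence intervals, for the 10 hypoxia-inducible genes (green) and the 12 tested genes of the HIF machinery (grey). The filled points, NDRG1 and ADM, passed at a limma adjusted p under 0.05, and the dotted line is the median of all tested genes, 0.13.

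The genes for mitochondrial removal, collagen hydroxylation and pH control had no member that passed the test, and in several of them the WT libraries lay far apart. P4HA1, the member with the highest mean level, was at 393, 113 and 242 TPM in WT replicates 1, 2 and 3 against 201, 238 and 230 TPM in the K700E replicates (GRCh37 chromosome 10, 74766975 to 74856732, minus strand). All 3 K700E values fell inside the WT range. Its log2 difference was 0.01 (SE 0.40), and its 95% interval was wide, at -0.92 to 0.95 (limma adjusted p 0.991). The sign turned with median-ratio or TMM scaling and in other settings. P4HA2, its sister subunit (GRCh37 chromosome 5, 131527531 to 131563775, minus strand), was by contrast the steadiest member in WT at 50.5, 51.0 and 51.8 TPM. In K700E it was at 63.4, 50.2 and 67.6 TPM, with replicate 2 under every WT value and the other libraries above them, and its 95% interval of -0.12 to 0.57 was among the narrower ones (limma adjusted p 0.493).

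BNIP3 (GRCh37 chromosome 10, 133779959 to 133795517, minus strand) was at 85.7, 36.7 and 62.4 TPM in WT replicates 1, 2 and 3 against 62.1, 57.5 and 44.5 TPM in the K700E replicates. BNIP3L, on chromosome 8, was at 190, 107 and 145 TPM in WT replicates 1, 2 and 3 against 121, 158 and 152 TPM in the K700E replicates. Both had WT replicate 1 highest and WT replicate 2 lowest of all 6 libraries. Their log2 differences were -0.10 (95% interval -0.80 to 0.60) and -0.01 (-0.53 to 0.51), with limma adjusted p of 0.899 and 0.988. The tables hold 43 pseudogenes named for BNIP3, of which 1 reached a mean of 1 TPM (BNIP3P41, 5.54 to 8.74 TPM), and reads can be shared with them.

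CA9 (GRCh37 chromosome 9, 35673915 to 35681156, plus strand) was at 14.3, 2.02 and 11.2 TPM in WT replicates 1, 2 and 3 against 15.5, 3.88 and 4.38 TPM in the K700E replicates. WT replicates 1 and 3 and K700E replicate 1 were above 11 TPM, while WT replicate 2 and K700E replicates 2 and 3 were under 5 TPM. Its log2 difference was -0.13 (SE 0.69) with a 95% interval of -1.74 to 1.49, the widest of the members, and a limma adjusted p of 0.948. ANKRD37 (GRCh37 chromosome 4, 186317995 to 186321395, plus strand) was at 5.99, 10.2 and 8.63 TPM in WT replicates 1, 2 and 3 against 7.48, 5.85 and 8.61 TPM in the K700E replicates, with a log2 difference of -0.14 (95% interval -0.66 to 0.38, limma adjusted p 0.796). Of its short counted length 54.7% overlaps UFSP2 on the opposite strand, a gene averaging 32.4 TPM over WT and 39.4 TPM over K700E libraries, and without a stated strand setting reads of the 2 genes cannot be told apart.

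**Figure D3:**
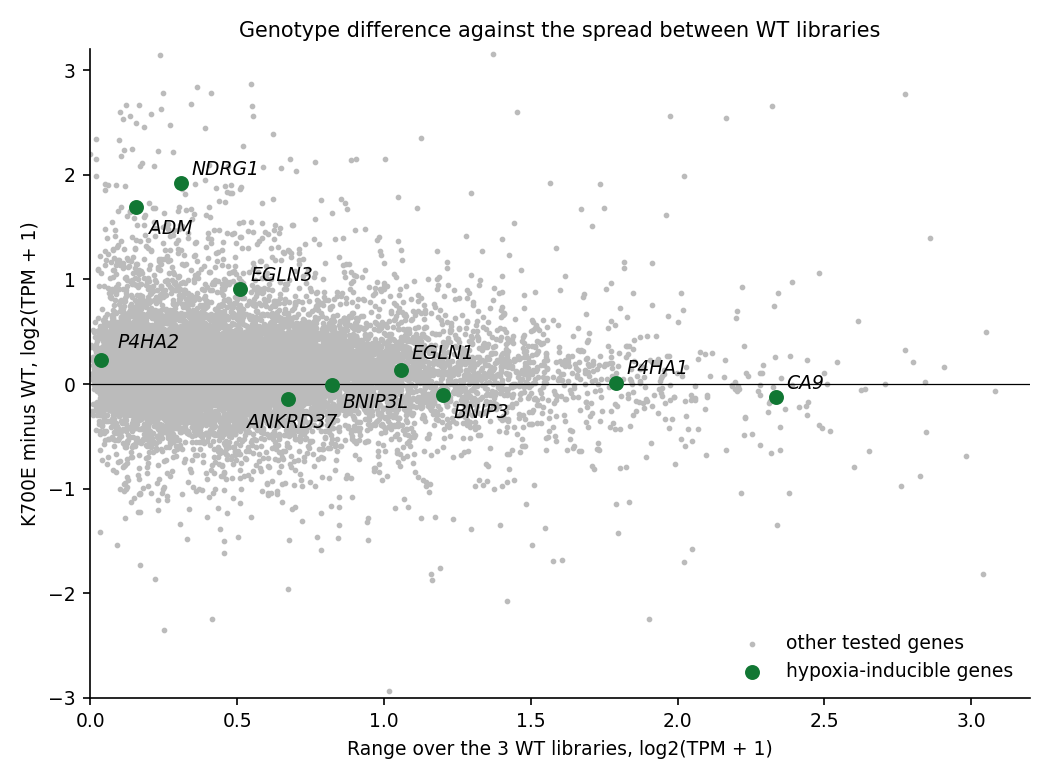
Log2 difference between K700E and WT (vertical) against the range over the 3 WT libraries (horizontal), both on the log2(TPM + 1) scale, for the hypoxia-inducible genes (green) and all other tested genes (grey), of which 11 lie outside the axes. NDRG1, ADM and EGLN3 sit high on the left, and CA9, P4HA1 and BNIP3 sit to the right near a difference of 0.

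The WT libraries thus differed more in some hypoxia-inducible genes than the genotypes did. The range over WT libraries was 2.34 log2 units for CA9, 1.79 for P4HA1, 1.20 for BNIP3 and 1.06 for EGLN1, which placed them at percentiles 99.7, 98.7, 93.5 and 90.5 of all tested genes. The range was 0.31 for NDRG1 and 0.16 for ADM, at percentiles 34.2 and 14.1. As a ratio, WT replicate 1 exceeded WT replicate 2 by 7.05 times in CA9, 3.48 times in P4HA1, 2.33 times in BNIP3 and 1.77 times in BNIP3L, and was 0.281 times as high in EGLN1. Among K700E libraries P4HA1 ranged over 0.24 log2 units only, while CA9 ranged over 1.76 and NDRG1 over 1.29, with replicate 1 highest in both.

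GC content moved with the same pair of libraries. Over all tested genes the median log2 difference between WT replicates 1 and 2 was 0.51 in genes of at most 42.2% GC and -0.63 in genes above 56.0% GC. P4HA1 (40.8% GC), BNIP3L (38.9%) and ANKRD37 (42.1%) belong to the former and CA9 (60.1%) and ADM (58.5%) to the latter. BNIP3 (51.4%) and EGLN1 (44.1%) lie in between. After each library was corrected for GC content, WT replicate 1 still exceeded WT replicate 2 by 2.95 log2 units in CA9, 1.37 in P4HA1 and 1.24 in BNIP3. In BNIP3L the gap shrank from 0.82 to 0.32. EGLN1 and ANKRD37 were lower in WT replicate 1, and their differences went from -1.06 to -1.34 and from -0.67 to -1.04. NDRG1 and ADM were called in the corrected fit too, with log2 differences of 1.76 and 1.56 and limma adjusted p of 0.0358 and 0.0157, and EGLN3 was at 0.75 (0.101). The part of GC content in the spread of the WT libraries was not tested beyond these values.

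**Figure D4:**
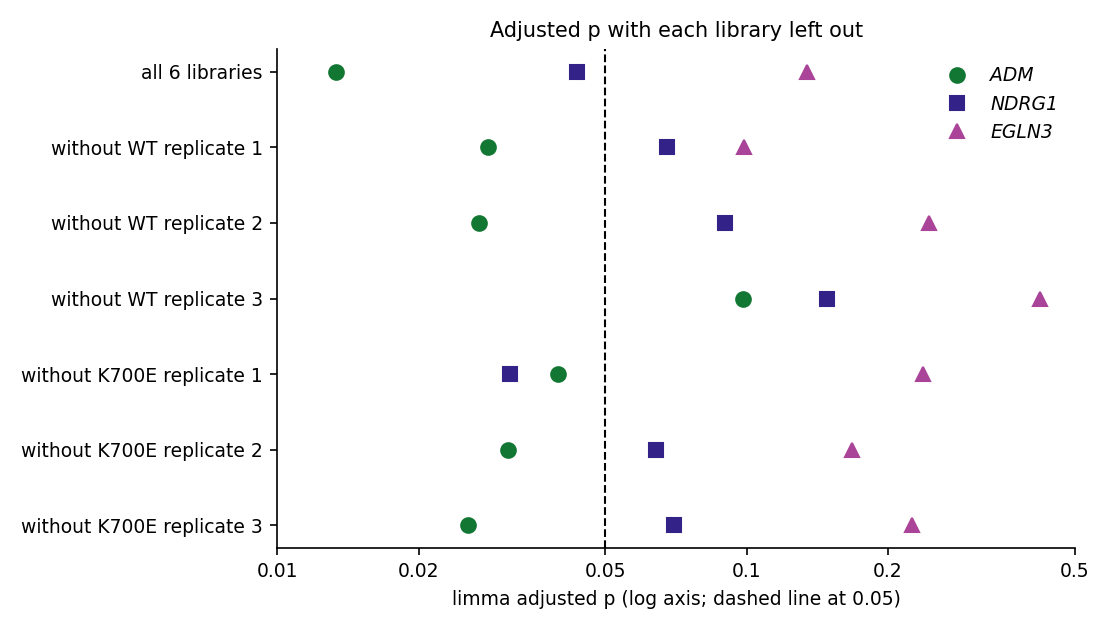
limma adjusted p (log axis) of ADM, NDRG1 and EGLN3 with all 6 libraries and with each library left out, and a dashed line at 0.05. ADM crosses the line without WT replicate 3 only, NDRG1 is left of it with all libraries and without K700E replicate 1, and EGLN3 lies to the right throughout.

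The HIF subunits and their regulators had no member past the threshold. Of 16 such genes 12 were tested, 0 rose and 0 fell by limma, and limma-voom on recovered reads also called 0. An unadjusted limma p under 0.05 was reached by 2 of the 12, against 16.5% of all tested genes. All K700E libraries lay above all WT libraries in 2 (EPAS1 and HIF1AN), against 19.0% of all tested genes. All lay below in 1 (CITED2), against 4.99%. CITED2 was at 54.8, 53.0 and 52.7 TPM in WT replicates 1, 2 and 3 against 46.5, 48.9 and 50.2 TPM in the K700E replicates (limma adjusted p 0.601). The median log2 difference of the 12 genes was 0.17, beside 0.13 over all tested genes. EPAS1, which encodes the HIF-2 alpha subunit, was at 18.5, 41.87 and 28.8 TPM in WT replicates 1, 2 and 3 against 50.4, 41.91 and 48.4 TPM in the K700E replicates. The groups were barely separated, and the log2 difference of 0.71 (SE 0.27, 95% interval 0.07 to 1.35) did not pass (limma adjusted p 0.256). HIF1A was at 22.0, 15.9 and 17.5 TPM in WT replicates 1, 2 and 3 against 29.7, 19.1 and 17.8 TPM in the K700E replicates (limma adjusted p 0.666), with K700E replicate 1 the highest of all 6 libraries, as in NDRG1, EGLN3 and CA9.

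HIF1AN, the asparagine hydroxylase that blocks the activating domain of the alpha subunits, was at 9.86, 9.17 and 9.24 TPM in WT replicates 1, 2 and 3 against 13.1, 12.7 and 12.2 TPM in the K700E replicates. Its libraries did not overlap, but the log2 difference of 0.39 (SE 0.13) did not pass (limma adjusted p 0.212). VHL was at 37.7 ± 3.32 TPM (SD, n = 3) in WT libraries and 40.4 ± 3.79 in K700E libraries, and ARNT at 61.0 ± 7.20 and 63.5 ± 4.41, with limma adjusted p of 0.773 and 0.868. ELOC and RBX1, partners of VHL in its ubiquitin ligase, had log2 differences of 0.22 and 0.21, with limma adjusted p of 0.583 and 0.544. These are RNA levels, and the protein of the alpha subunits was not measured.

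Among 59 other known HIF targets, 53 were tested, 2 rose and 0 fell. Their median log2 difference was 0.24, and 34 of the 53 lay above the median of all tested genes. All K700E libraries lay above all WT libraries in 14 of the 53, against 19.0% of all tested genes, and all lay below in 1 (ENO2, at 279 to 304 TPM over WT and 229 to 277 TPM over K700E libraries), against 4.99%. BHLHE41, among the 14, averaged 0.640 TPM over WT and 1.73 TPM over K700E libraries. It reached the level tested only through the K700E libraries. An unadjusted limma p under 0.05 was reached by 10 of the 53 (18.9%), against 16.5% of all tested genes in either direction. All 10 were higher in K700E, while over all 15493 tested genes 2018 were higher and 545 lower at that p. BHLHE41 was among the 10 too. The list was chosen with earlier results of these data known, so these counts are a description. LOXL2, an enzyme that oxidises lysine in collagen, rose from 2.77 ± 0.447 to 10.98 ± 0.940 TPM (SD, n = 3 each; limma adjusted p 0.0105). The glucose transporter gene SLC2A3 rose from 246, 227 and 231 TPM to 528, 499 and 406 TPM (log2 difference 1.01, SE 0.13, limma adjusted p 0.0191). Both are also known to respond to other signals. BHLHE40, a repressor of transcription, was next at 414 ± 23.6 and 575 ± 42.0 TPM (SD, n = 3 each; limma adjusted p 0.108). TFRC, the transferrin receptor gene, followed at 528, 466 and 477 TPM in WT replicates 1, 2 and 3 against 766, 659 and 1092 TPM in the K700E replicates (log2 difference 0.74, SE 0.19, limma adjusted p 0.122).

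Neither call stood without WT replicate 3, where the limma adjusted p was 0.0983 for LOXL2 and 0.135 for SLC2A3. SLC2A3 also missed the threshold without K700E replicate 1 (0.0626) and without K700E replicate 2 (0.0740), while over all 19 alternatives its limma adjusted p ran from 0.0105 to 0.135. Between WT replicates 1 and 2, 31 of the 53 targets were higher in replicate 1 and 22 in replicate 2, against 55.8% of all tested genes that were higher in replicate 1.

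**Figure D5:**
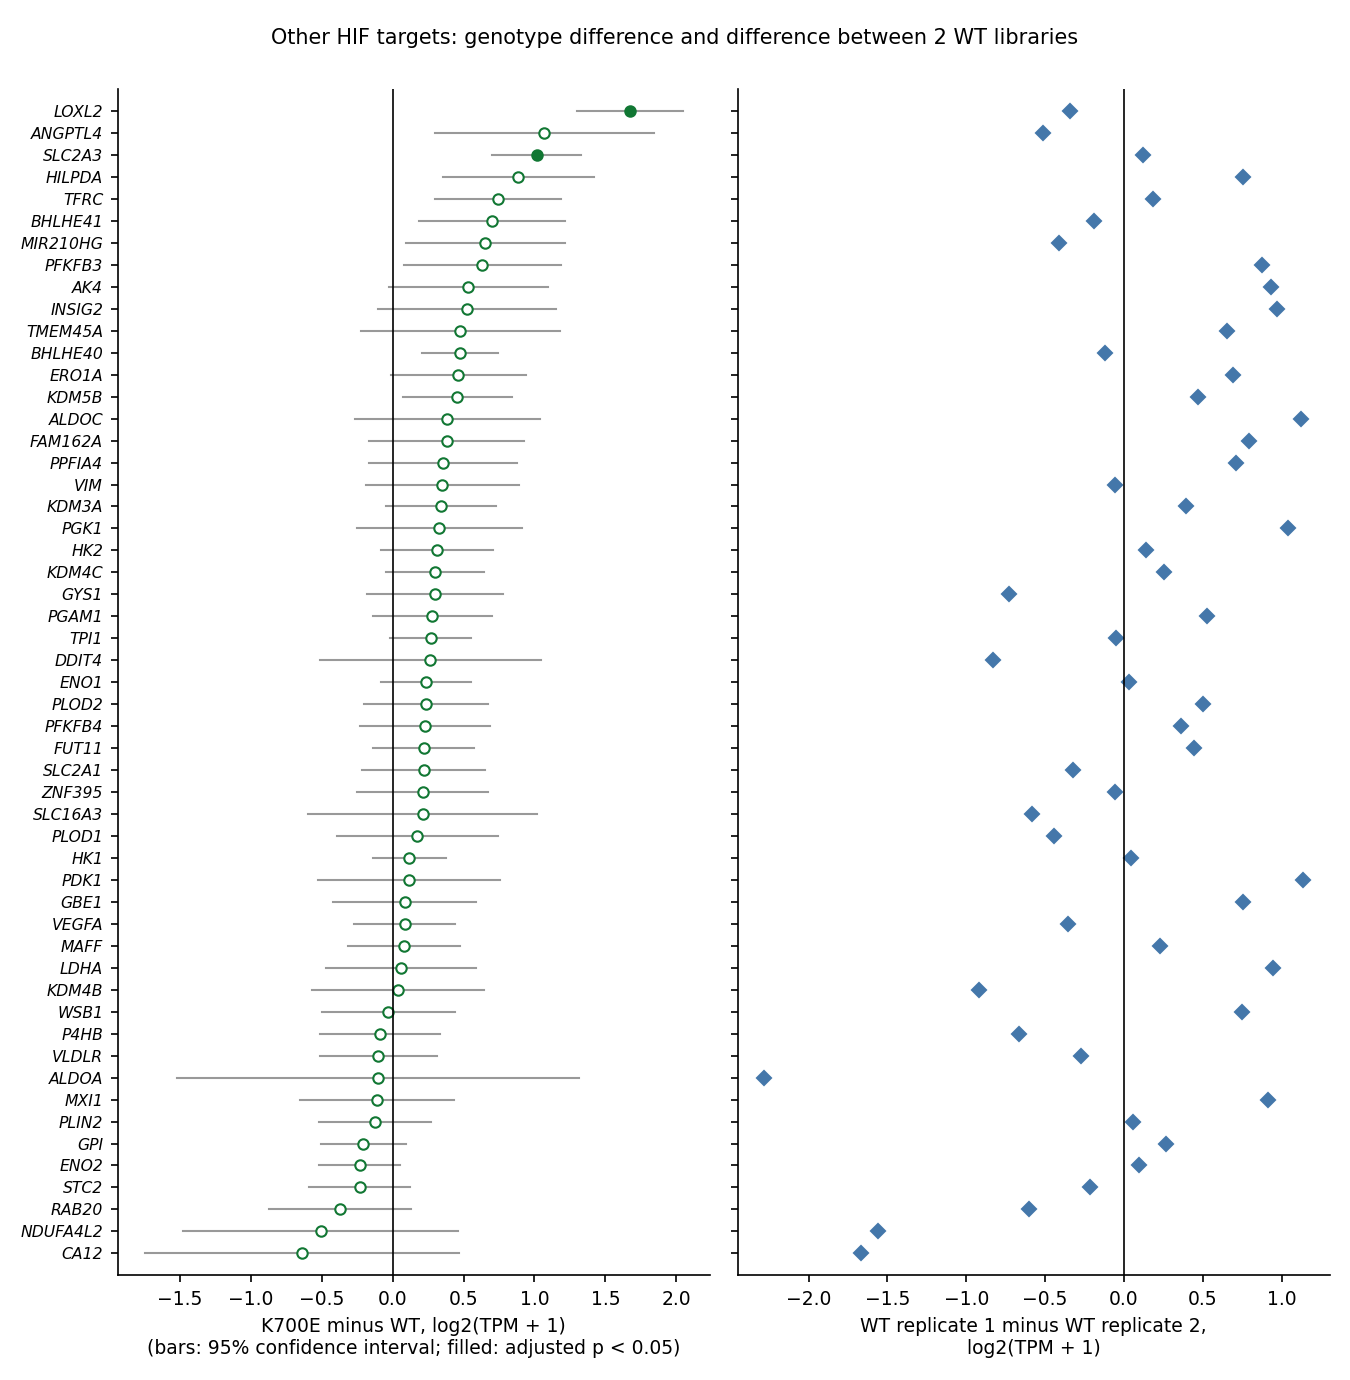
Left, log2 difference between K700E and WT with its 95% confidence interval for the 53 tested genes of the list of other HIF targets, filled where the limma adjusted p is under 0.05. Right, the difference between WT replicates 1 and 2 for the same genes, all on the log2(TPM + 1) scale, where many genes with little difference between genotypes differ by up to 1 log2 unit or more.

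Relatives and partners of the members did not pass either. Of 14 such genes 11 were tested, and limma called 0, as did limma-voom on recovered reads. An unadjusted limma p under 0.05 was reached by 1 of the 11, RAMP1, against 16.5% of all tested genes. Of the NDRG family, NDRG3 was at 58.5, 39.5 and 46.6 TPM in WT replicates 1, 2 and 3 against 68.2, 71.2 and 53.2 TPM in the K700E replicates (limma adjusted p 0.330), and NDRG2 at 41.4, 42.7 and 41.8 TPM in WT replicates 1, 2 and 3 against 65.7, 46.0 and 45.2 TPM in the K700E replicates (0.451). NDRG2 had its highest value in K700E replicate 1, as NDRG1 did. RAMP1, which pairs with the calcitonin receptor-like receptor, had the smallest p of the list. It was at 0.241, 0.272 and 0.467 TPM in WT replicates 1, 2 and 3 against 0.371, 3.45 and 1.69 TPM in the K700E replicates. The groups overlapped, and the limma adjusted p was 0.285. RAMP1 averaged 0.326 TPM over WT and 1.84 TPM over K700E libraries, so it reached the level tested only through the K700E libraries. Its p is therefore a description. CALCRL, the calcitonin receptor-like receptor and the one through which adrenomedullin acts, was under 0.22 TPM in all 6 libraries, and RAMP2 and RAMP3 were under 0.07 TPM. BECN1, which acts in autophagy, was at 35.7 ± 1.13 and 42.4 ± 4.87 TPM (SD, n = 3 each; limma adjusted p 0.437).

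The library patterns nearest to those of NDRG1 and ADM came from genes outside the lists, where nearly all genes searched lay. Likeness was measured as the root mean square difference of log2(TPM + 1) values, each centred on its gene's mean, over the 6 libraries and all genes averaging 5 TPM or more (10505 compared with NDRG1). Nearest to NDRG1 were PPFIBP1 (0.228), IL1A (0.247) and CCR5AS (0.255), each with its highest level in K700E replicate 1, as in PPFIBP1 at 9.54, 7.89 and 8.79 TPM in WT replicates 1, 2 and 3 against 46.2, 19.3 and 20.6 TPM in the K700E replicates. Nearest to ADM were SYTL5 (0.136), BFSP1 (0.144) and PXDC1 (0.150), such as SYTL5 at 4.05, 3.34 and 3.69 TPM in WT replicates 1, 2 and 3 against 13.7, 13.9 and 10.8 TPM in the K700E replicates. These genes were picked for their likeness over the same libraries, so their own differences are a description.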

How the data were processed

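Gene expression was measured by mRNA sequencing in 3 WT and 3 K700E samples. The authors deposited TPM values in 2 tables, one for each genotype, so a difference in how the tables were made cannot be told apart from genotype. The header of the WT table gives gene lengths in the layout of featureCounts and library names of the form that STAR writes, while cutadapt 2.10, TopHat2 2.1, featureCounts 2.0.1, DESeq2 and GRCh37 are named in the submitters' processing notes. Strand settings were not given in the sources used here. TPM multiplied by gene length came out as whole multiples of 1 step in 100% of values above 0 (tolerance 0.01 of a step), which gave the read ends per gene.

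The 15493 genes averaging at least 1 TPM were tested on log2(TPM + 1), which understates changes of low genes, with limma 3.58.1 in R 4.3.3 (trend on mean level, two-sided, Benjamini-Hochberg adjustment over all tested genes, threshold 0.05). The step was tested on simulated data, with the spread of each gene drawn independently. It recovered 37.2% of 2-fold and 83.8% of 4-fold changes, so a gene that did not pass may still differ. Symbols matched 58604 of 62111 IDs, and GC content 97.7% of tested genes. The alternatives were other pseudocounts, filters and scalings, limma-voom on read ends, a block, protein-coding genes and each library left out. GC correction, and GC correction or voom without WT replicate 3, were added after seeing the data. The text names all members, the main HIF regulators, the called genes or at least the 4 of smallest p in each further list, and the 3 nearest patterns. One gene of the lists is not reported here and stays out of the counts over its list. Members and lists were chosen with earlier results of these data known. Python 3.11.15, pandas 2.3.3 and matplotlib 3.10.9 joined and drew the data.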

Additional observations from a re-analysis of the deposited data

How the results depend on the processing

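Over all tested genes limma called 214 genes, 178 higher and 36 lower. It called 0 with no filter (4891 at an unadjusted p under 0.05), 92 with a minimum of 5 TPM, 122 in protein-coding nuclear genes, 381 with limma-voom, 67 with the replicate block and 485 with GC correction (267 higher, 218 lower). Leaving out 1 library gave 0 to 182 calls. Without WT replicate 3, GC correction and limma-voom also called 0 (1971 and 2420 at an unadjusted p under 0.05). Of the members, 2 were called. The count was 1 (ADM) with a pseudocount of 5, median-ratio scaling, TMM scaling, protein-coding genes alone or the replicate block, and 0 with no filter, with a minimum of 5 TPM (where ADM is not tested), and with GC correction or voom without WT replicate 3. Leaving out 1 library gave 0 to 2. Of the other HIF targets 2 were called, 1 with the replicate block, 0 with no filter and 0 with GC correction or voom without WT replicate 3 (12, 9 and 10 at an unadjusted p under 0.05), and 0 to 2 with 1 library left out. HIF machinery and relatives gave 0 calls in all 19 alternatives. The cause of these shifts was not tested.

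Median-ratio and TMM scaling moved the median gene from 0.13 to -0.00060 and 0.0018. Small differences changed sign: P4HA1 was at -0.13 with either scaling, -0.017 with voom, -0.12 with GC correction and -0.051 with GC correction without WT replicate 3. ARNT was at -0.082, -0.079, -0.093 and -0.095 with median-ratio scaling, TMM, GC correction and GC correction without WT replicate 3, and VHL at -0.042, -0.039, -0.055 and -0.025. EGLN1 was at -0.0064 with GC correction and CA9 at 0.24 with voom without WT replicate 3. With 1 library left out the log2 difference ran from -0.85 to 0.32 for CA9, -0.43 to 0.17 for BNIP3, -0.22 to 0.19 for BNIP3L, -0.18 to 0.35 for EGLN1, -0.47 to 0.43 for P4HA1, -0.33 to 0.0050 for ANKRD37 and -0.022 to 0.15 for ARNT.

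Same-numbered libraries of the 2 genotypes had correlations of their deviations of 0.28, -0.19 and 0.30 across tested genes, so the numbers were not taken as pairs. With the replicate block the limma adjusted p was 0.0437 for ADM, 0.0655 for NDRG1 and 0.0544 for SLC2A3.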
